A study of Homo sapiens with 2 samples.

Results

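Metallothioneins and zinc transporters set how much free zinc a cell holds. The genes described here are the protein-coding genes of the deposited tables named MT1 or MT2 with a single closing letter, the SLC30A and SLC39A solute carriers, and MTF1. There are 34 of them among 58735 listed genes, namely 9 metallothioneins, 10 SLC30A genes, 14 SLC39A genes and MTF1. The rule uses names and no measured value, although the group of genes was proposed with earlier results of these data known.

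RNA of PLC8024 cells was compared between MAEL wildtype and MAEL knockout. PLC8024, labelled 8024 and Alexander cells, is the hepatoma line PLC/PRF/5, an established human liver cancer line. The WT library came from cells labelled as not treated, and the KO library from the same line after knockout of MAEL, a cancer/testis gene, with an sgRNA and Cas9. Both grew in DMEM with serum. Per the methods, sorted transfected cells were grown into single clones, and the labels do not say which clone was sequenced, so a difference of the clone and a difference from the knockout cannot be told apart. There was 1 library of each kind, so no difference below has a replicate check, no p-value is given, and the 95% intervals (exact Clopper-Pearson) cover counting error only.

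The 2 libraries held 19904136 (WT) and 20833332 (KO) counts. MAEL had 1 count in WT and 0 in KO, so its transcript could not check the labels. All 11 hepatocyte lineage markers were above 3 counts in both libraries, and their levels were not equal, with ALB at 59 counts in WT and 8550 in KO and SERPINA1 at 78162 and 232891. Their summed counts were 250900 and 495350. Of 10 leukocyte, endothelial and fibroblast markers, PECAM1 (348 and 392 counts) and COL1A1 (92 and 11) were the only ones above 15 counts in a library. CDH5 (4 and 15) and CD14 (9 and 5) were also above 3 counts in both libraries. CD3E was at 0 in both, and PTPRC, VWF, DCN and LUM were at 0 in KO.

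Metallothioneins are small cysteine-rich proteins that bind zinc, copper and cadmium and release zinc again, and the liver is a main site of their synthesis. MTF1 is the transcription factor that senses free zinc and switches on metallothionein genes and the zinc exporter gene SLC30A1. Most proteins of the SLC30A family (ZnT) move zinc out of the cytosol, across the plasma membrane or into organelles. Proteins of the SLC39A family (ZIP) move zinc into the cytosol.

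The metallothionein coding sequences are shown first, since how alike they are bears on every count below. MT2A is the metallothionein with the most counts, MT1X the one that differed most between the libraries, and MT1E one that was listed at 0. The capitals mark the cysteine codons in frame (GENCODE 29, GRCh38, coding strand).

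MT2A: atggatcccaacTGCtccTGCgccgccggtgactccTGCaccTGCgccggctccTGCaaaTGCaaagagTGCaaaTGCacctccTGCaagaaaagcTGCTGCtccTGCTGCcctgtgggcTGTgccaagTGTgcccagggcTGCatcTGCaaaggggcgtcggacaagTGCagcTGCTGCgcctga
MT1X: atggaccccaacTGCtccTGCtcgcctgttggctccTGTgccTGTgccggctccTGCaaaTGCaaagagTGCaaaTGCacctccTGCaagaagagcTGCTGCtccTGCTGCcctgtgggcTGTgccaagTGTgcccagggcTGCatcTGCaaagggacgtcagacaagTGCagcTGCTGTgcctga
MT1E: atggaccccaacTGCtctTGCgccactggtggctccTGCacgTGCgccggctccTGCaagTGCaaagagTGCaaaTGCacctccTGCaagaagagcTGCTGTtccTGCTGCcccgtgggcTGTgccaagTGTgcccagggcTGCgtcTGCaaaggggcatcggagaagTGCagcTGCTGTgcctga

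Each of the 9 coding sequences ran over 186 bases, or 61 codons and a stop. Of those 61 codons, 20 coded for cysteine in each gene except MT1B, which had 21. Over the 36 pairs of genes the identity ranged from 88.7% to 95.2%, with a median of 91.4%. MT2A and MT1X were 92.5% identical, and so were MT2A and MT1E. Over whole transcripts, of all stretches of 100 bases in MT2A, 0 of 990 were found in a transcript of another gene, and the same held for MT1A, MT1E, MT1F, MT1G and MT1M. For MT1X, 223 of 723 such stretches (30.8%) were shared with another annotated gene, which need not be a metallothionein. Of stretches of 50 bases, all 9 genes shared some, from 3.27% in MT1F and 4.24% in MT2A to 16.5% in MT1G and 43.6% in MT1X. The read length is not given in the sources used here. An annotated gene on the same strand, AC026461.1, which was listed at 0 counts, covers 321 (18.1%) of the MT1X exon bases. In the same way AC026461.2, also at 0, covers 120 (31.6%) of those of MT1B. The shared stretches above take in any that lie in these overlaps, and they were not counted apart from those shared with other metallothioneins. For these genes the shares thus do not measure likeness within the family alone.

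Few reads were counted for metallothioneins in either library. How reads that match several genes were counted is not given, so reads of these genes may have been left out, and the low counts, the zeros and the limits below hold for counted reads and not for the RNA itself. MT2A, MT1X and MT1F were the only metallothioneins with 10 or more counts in a library, and MT1A, MT1B, MT1E, MT1G, MT1H and MT1M were listed at 0 in both. At these depths a count of 0 allows a counted level of up to 0.151 CPM in WT and 0.144 in KO. The 9 genes together had 129 counts in WT and 150 in KO, or 6.48 (interval 5.41 to 7.70) and 7.20 (6.09 to 8.45) CPM (counts scaled to library size). By the deposited FPKM values, which are per length, MT2A stood at 3.34 in WT and 3.53 in KO and ranked 9160 and 8824 among all listed genes. The transcription factor MTF1 had a similar level per length, at 3.60 and 2.56 FPKM.

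**Figure D1:**
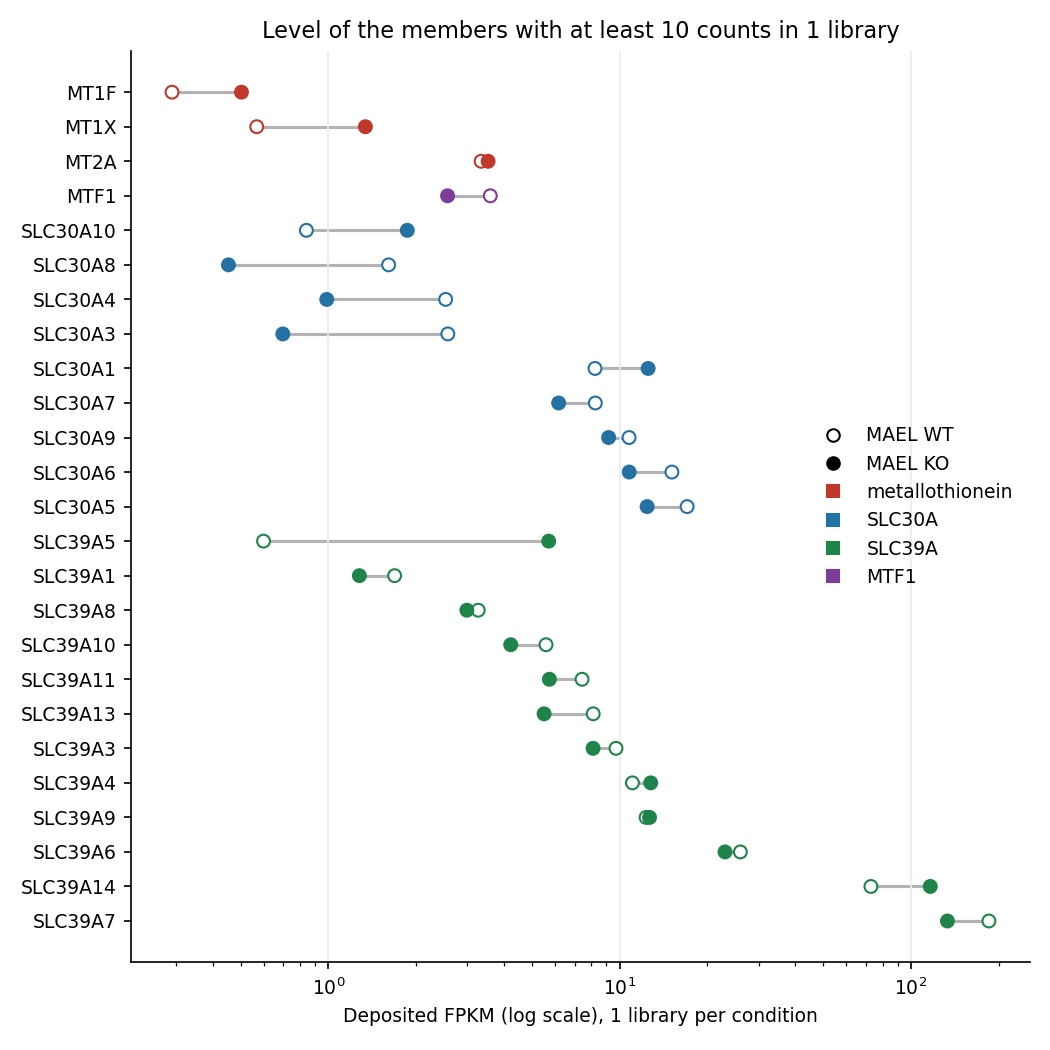
Deposited FPKM (log axis) of the 25 members with at least 10 counts in 1 library, with 1 open point for MAEL WT and 1 filled point for MAEL KO per gene and a line joining them. SLC39A7 and SLC39A14 stand above all others in both libraries, the metallothioneins lie below 4 FPKM, and SLC39A5 shows the widest gap.

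KO was compared with WT after TMM, a scaling that takes most genes as not changed. A log2 fold change was computed, after 1 had been added to both normalized values, wherever either library held 10 counts or more. This left 17887 genes, with a median of -0.04, and 25 of the members. In RNA of a whole culture, fewer cells that express a gene and less of its RNA per cell cannot be told apart.

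A log2 fold change above 2 was reached by 1 of the 25 members (SLC39A5) and by 2.16% of all tested genes, and none of the 25 was below -2, against 5.64% of all. Above 1 there were 3 members (SLC39A5, MT1X and SLC30A10) and 10.2% of all genes. Below -1 there were 3 members (SLC30A3, SLC30A8 and SLC30A4) and 16.5% of all genes. That is 24.0% of the members past 1 in either direction, against 26.7% of all tested genes. The intervals of 6 members lay above 0, as did 34.8% of all, those of 14 lay below 0, as did 34.7% of all, and those of 5 included 0. When libraries were scaled by total counts alone, these numbers were 5, 17 and 3, and the median over the whole table was -0.31 in place of -0.04.

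**Figure D2:**
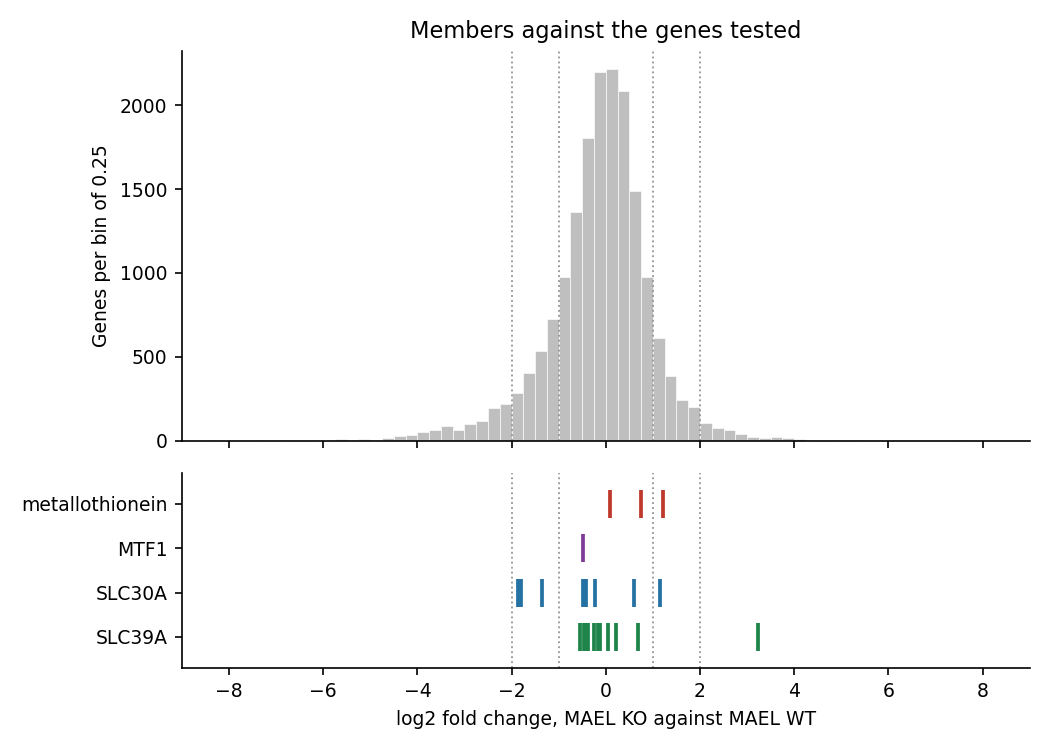
Upper panel, number of the 17887 tested genes in each bin of 0.25 of log2 fold change (KO against WT). Lower panel, each tested member as a tick on the same axis, by family, with dotted lines at the thresholds of 1 and 2 in both directions. SLC39A5, at 3.22, is the member farthest from 0.

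Of the metallothioneins, MT2A went from 95 to 87 counts, or from 88.6 to 93.8 normalized counts. The log2 fold change was 0.08, with an interval of -0.35 to 0.52, which includes no change. MT1X went from 22 to 45 counts (log2 fold change 1.20, interval 0.48 to 2.05). MT1F went from 12 to 18 counts (log2 fold change 0.74, interval -0.34 to 1.98). So MT1X was the one metallothionein whose interval lay wholly above 0, and all 3 detected genes had values above 0, except that MT2A was at -0.19 when scaled by total counts.

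The summed metallothionein counts differed by 0.43 on the log2 scale (0.08 to 0.78), higher in KO. With total counts as the scaling, the same sum differed by 0.15, and its interval of -0.20 to 0.50 then included 0. Adding the 9 metallothionein genes that are not protein-coding, which held 5 counts in WT and 4 in KO, gave 0.41.

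MTF1 went from 631 to 390 counts (log2 fold change -0.48, interval -0.67 to -0.30), or 1.40-fold lower in KO. Its direction was opposite to that of MT1X and of the zinc exporter SLC30A1, while the interval of MT2A included 0. The activity of MTF1 was not measured, and a link between these values was not tested.

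The promoters of MT2A, MT1X and SLC30A1, whose genes are known targets of MTF1, are shown next. They run from 250 bases before to 50 after the start of transcription (RefSeq, GRCh38.p14), and the capitals mark the letters TGCGCNC or TGCACNC on either strand, the core of the metal response element that MTF1 binds.

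MT2A, chr16:56608334-56608633, plus strand: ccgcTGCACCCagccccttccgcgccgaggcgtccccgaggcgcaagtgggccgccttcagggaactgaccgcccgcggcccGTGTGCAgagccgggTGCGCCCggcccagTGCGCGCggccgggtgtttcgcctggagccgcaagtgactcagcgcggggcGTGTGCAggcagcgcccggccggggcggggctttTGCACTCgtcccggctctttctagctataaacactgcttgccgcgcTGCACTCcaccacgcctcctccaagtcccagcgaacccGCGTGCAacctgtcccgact
MT1X, chr16:56682220-56682519, plus strand: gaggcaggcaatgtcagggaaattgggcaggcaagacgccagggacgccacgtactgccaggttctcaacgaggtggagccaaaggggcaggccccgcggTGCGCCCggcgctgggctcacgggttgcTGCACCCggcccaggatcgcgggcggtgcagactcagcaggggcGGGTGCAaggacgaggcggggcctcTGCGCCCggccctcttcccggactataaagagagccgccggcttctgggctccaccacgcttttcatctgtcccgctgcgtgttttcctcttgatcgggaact
SLC30A1, chr1:211579112-211579411, minus strand: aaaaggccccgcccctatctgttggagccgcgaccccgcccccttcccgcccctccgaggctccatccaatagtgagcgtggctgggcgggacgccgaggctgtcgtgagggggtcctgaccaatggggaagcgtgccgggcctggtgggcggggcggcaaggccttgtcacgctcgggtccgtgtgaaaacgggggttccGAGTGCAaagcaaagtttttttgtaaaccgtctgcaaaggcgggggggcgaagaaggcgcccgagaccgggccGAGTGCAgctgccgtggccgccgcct

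Promoter entries were found for 26 of the 34 members, with none for MT1A, MT1E, MT1F, MT1G, MT1M, SLC30A8, SLC39A4 and SLC39A14. MT2A held 8 matches, MT1H 8, MT1X 4 and MT1B 3. Among all 35116 promoter windows of the same length, 29.6% held at least 1 match, and 0.601% held at least 4. At least 2 were held by 8.60% of all windows. Of the 9 SLC30A genes with an entry, 5 held at least 1, with 3 in SLC30A2, 2 each in SLC30A1 and 1 window of SLC30A3, and 1 each in SLC30A4 and SLC30A6. SLC30A1 was higher and SLC30A3 lower in KO. Of the 12 SLC39A genes with an entry, 7 held at least 1 match in at least 1 window and none held 2, and MTF1 held none. The 9 SLC30A genes had 11 windows and the 12 SLC39A genes 19, and each gene was counted by its best window. The shares of all promoters are per window, so these gene counts cannot be set directly against them. The matches are letters in a window and not measured binding. MT1H, with as many matches as MT2A, was among the genes listed at 0.

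The 9 metallothionein genes lie within 76.0 kb on chromosome 16 (56608199 to 56684196, GRCh38). Of 14 other protein-coding genes that start or end within 500 kb of them, 10 had at least 10 counts in 1 library. These genes went both ways, 5 above 0 and 5 below, with a median log2 fold change of 0.02. With total counts the median was -0.26. With no count filter 11 of the 14 entered, and the median was -0.08. NUP93, a nuclear pore gene on the far side of MT1X, went from 906 to 1923 counts (1.30), and NUDT21, which acts in cleavage of pre-mRNA ends, from 1199 to 2415 (1.22). HERPUD1, a gene of the endoplasmic reticulum stress response, went from 5551 to 1189 counts (-2.01), and NLRC5, an activator of MHC class I genes, from 65 to 12 (-2.14). SLC12A3, a kidney salt transporter, had 0 and 21 counts, at least 8.10-fold higher in KO against 3 counts in WT. The nearest neighbours on the MT2A side, MT3 and MT4, are metallothioneins that the naming rule leaves out, and both were listed at 0.

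**Figure D3:**
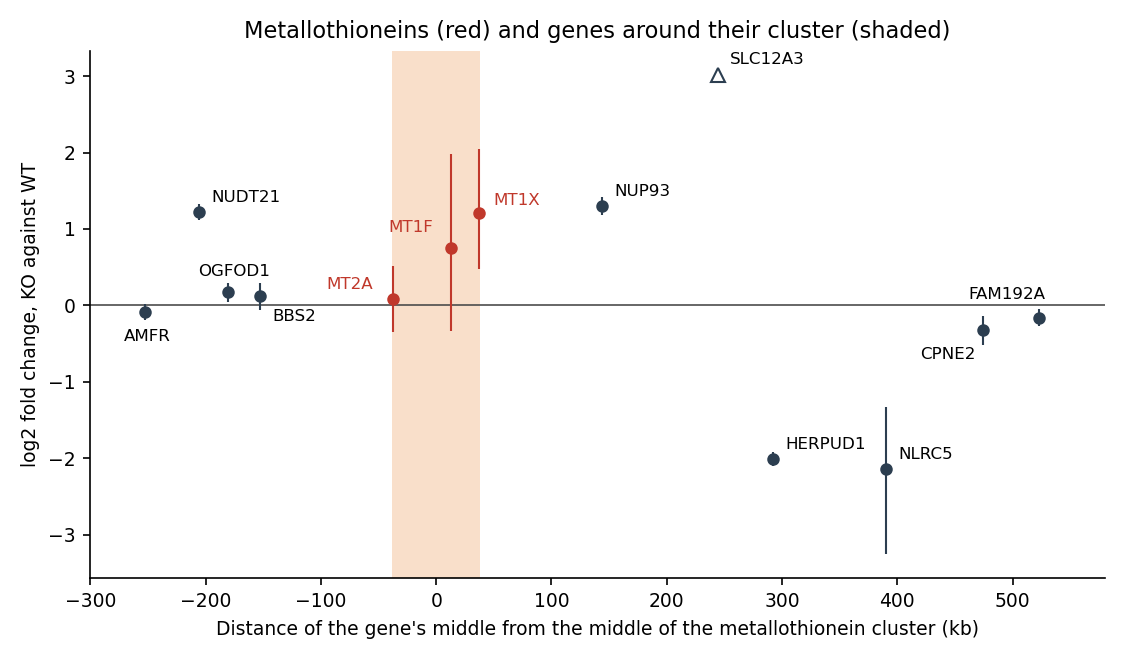
log2 fold change of KO against WT (vertical axis) against distance in kb from the middle of the metallothionein cluster (shaded), with 3 metallothioneins in red and 10 other genes in dark grey. Bars are 95% counting intervals, and the open triangle is the lower bound of SLC12A3. The genes around the cluster lie on both sides of 0.

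Genes of the SLC30A family were mostly lower in KO. Past 1 in either direction there were 4 of 9 tested SLC30A genes and 1 of 12 tested SLC39A genes, beside 26.7% of all tested genes. Of 10 members, 9 had at least 10 counts in 1 library, and SLC30A2 had 1 and 0. Their median log2 fold change was -0.45, and 7 were lower and 2 higher in KO, each with an interval that left out 0. Of all tested genes, 34.7% had an interval below 0 and 34.8% one above it.

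Both of the higher genes code for exporters at the cell surface. SLC30A1, the main zinc exporter of the plasma membrane, went from 985 to 1299 counts, or 8.23 to 12.5 FPKM. Its log2 fold change was 0.61 (0.49 to 0.73). SLC30A10, a manganese exporter of liver and brain, went from 106 to 204 counts (log2 fold change 1.15, interval 0.81 to 1.51). With total counts as the scaling these values were 0.33 and 0.87.

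The exporters that fill vesicles of specialised cells had the largest differences in the other direction. SLC30A3, which loads zinc into synaptic vesicles, went from 336 to 79 counts (log2 fold change -1.87, interval -2.25 to -1.52). SLC30A8, the transporter of insulin granules, went from 221 to 54 counts (-1.80, interval -2.28 to -1.39). SLC30A4, found in endosomes and milk-secreting cells, went from 446 to 151 counts (-1.35, interval -1.63 to -1.08). These were 3.68-, 3.54- and 2.55-fold lower in KO, from levels of 1.61 to 2.57 FPKM in WT. DNAJC5G, on the opposite strand, overlaps 42 exon bases of SLC30A3 and went from 34 to 2 counts, and its part in the difference was not tested. With total counts SLC30A3 was at -2.14 and SLC30A8 at -2.08, both then past -2.

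The exporters of the early secretory pathway and of mitochondria stayed closer together. SLC30A5, SLC30A6 and SLC30A7, which bring zinc to enzymes in the Golgi, had 2156, 1788 and 1511 counts in WT and 1362, 1106 and 980 in KO. Their log2 fold changes lay between -0.48 and -0.41, and their order by FPKM was the same in both libraries. SLC30A9, which moves zinc out of mitochondria, went from 1702 to 1255 counts (-0.23, interval -0.34 to -0.12).

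**Figure D4:**
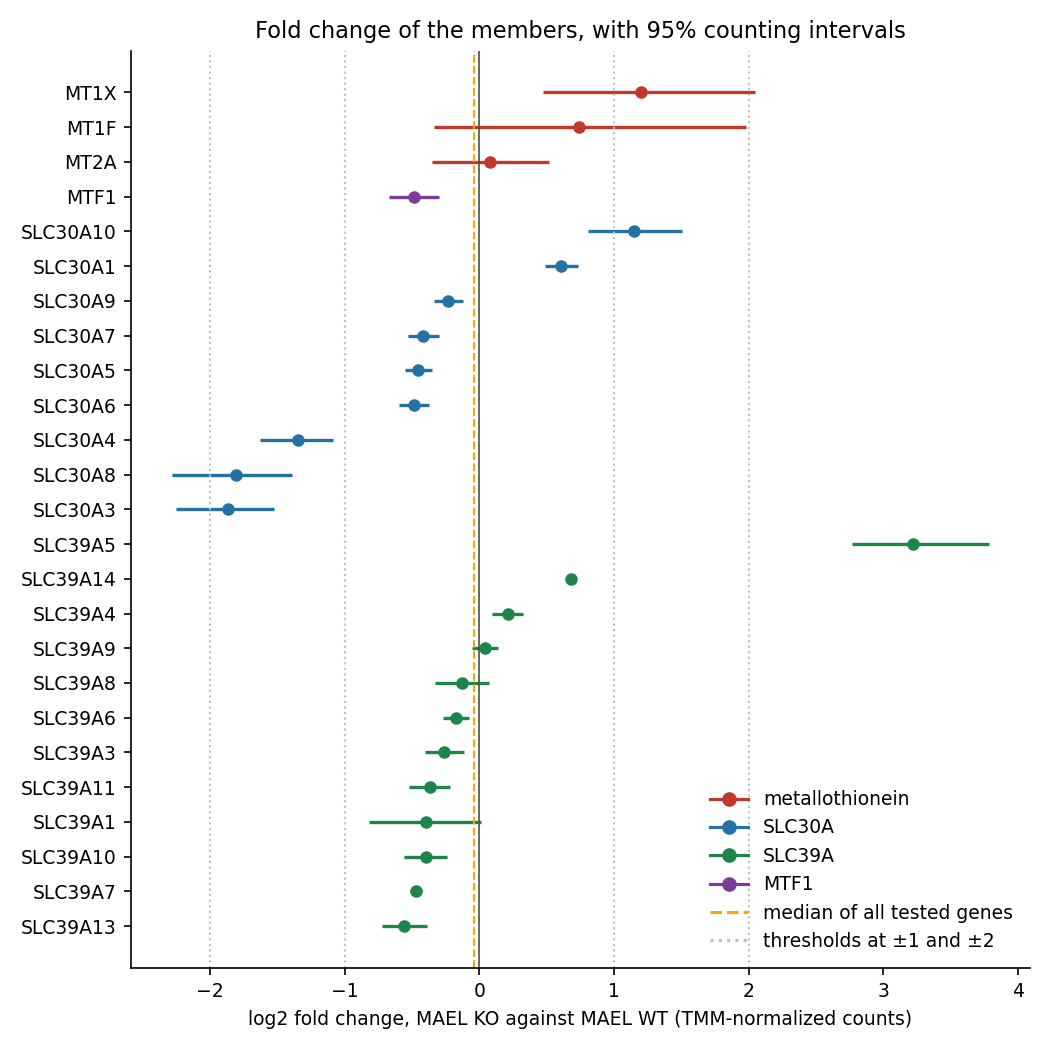
log2 fold change of KO against WT for the 25 members, as points with 95% counting intervals (bars shorter than the point are hidden), in order of size within each family. The dashed line is the median of all tested genes (-0.04) and the dotted lines the thresholds. SLC39A5 alone lies past 2, and the spread among SLC30A genes runs from -1.87 to 1.15.

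Zinc importers of the SLC39A family were the most abundant members. SLC39A12 and SLC39A2, known from brain and skin, were at 0 in both libraries, and 12 of 14 were tested. Their median log2 fold change was -0.21, with 4 genes above 0 and 8 below, though SLC39A4 and SLC39A9 were also below 0 with total counts. The summed counts of the family gave 0.13 (0.10 to 0.15), of the other sign, but -0.15 (-0.17 to -0.13) when scaled by total counts, and the summed FPKM was 344 in WT and 332 in KO. The direction of the sum thus depends on the scaling. SLC39A7 and SLC39A14 made up 70.6% of the counts in WT and 74.7% in KO.

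Those leading genes went opposite ways. SLC39A7, which releases zinc from the endoplasmic reticulum and Golgi, went from 11523 to 7196 counts, or 185 to 133 FPKM. Its log2 fold change was -0.47 (-0.51 to -0.43). RXRB, on the opposite strand, covers 8.58% of the SLC39A7 exon bases and had 1349 and 1172 counts. The part of RXRB in the difference was not tested. SLC39A14, a plasma membrane importer of zinc, iron and manganese in hepatocytes, went from 11064 to 15330 counts, or 72.9 to 116 FPKM. Its log2 fold change was 0.68 (0.65 to 0.72). The level of SLC39A14 per length was thus 0.393 times that of SLC39A7 in WT and 0.873 times in KO.

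SLC39A5, an importer of the basolateral membrane of gut, pancreas and liver cells, differed most of all members. It went from 38 counts in WT to 314 in KO, and from 0.599 to 5.71 FPKM. Its log2 fold change was 3.22 (2.77 to 3.78), 9.56-fold higher in KO, and 0.464% of all tested genes had a larger value. ANKRD52, on the opposite strand, shares 40 exon bases with it and went the other way, from 5098 to 3191 counts. The hepatocyte lineage markers given above were also higher in KO in sum, and their part in this difference and in those of the other members was not tested.

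The remaining importers all lay between -1 and 1. SLC39A4, the importer lost in acrodermatitis enteropathica, had 1218 and 1219 counts (0.21, interval 0.10 to 0.33), and its value was -0.07 with total counts. SLC39A9, of the trans-Golgi network, had 1923 and 1713 counts (0.04) and also changed sign with total counts, to -0.23. ERH, on the opposite strand, shares 5.23% of its exon bases and went from 2220 to 3796 counts. SLC39A8, which carries manganese and cadmium as well as zinc, had 463 and 367 counts (-0.12, interval -0.33 to 0.08). SLC39A6, SLC39A3, SLC39A11, SLC39A10 and SLC39A13 were lower in KO, from -0.17 for SLC39A6 to -0.55 for SLC39A13, each with an interval below 0. SLC39A1 had 125 and 82 counts (-0.39, interval -0.82 to 0.01). AL358472.7, a gene on the same strand listed at 0, covers 60.8% of its exon bases. CREB3L4, on the opposite strand, covers 8.26% of them and had 227 and 220 counts, so the counts of SLC39A1 are uncertain.

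Other genes of metal handling were taken from a list of 20 with MT3, MT4, copper, iron and magnesium carriers and MTF2, a Polycomb protein that shares only its name with MTF1. Of the 20, 17 were tested, with a median log2 fold change of -0.10, 8 above 0 and 9 below. With only the 16 genes of at least 100 counts in 1 library, the median was 0.14. Past 1 there was a single gene in each direction, beside 10.2% of all tested genes above 1 and 16.5% below -1. ATP7B, the copper exporter of hepatocytes, went from 1066 to 2236 counts (1.28, interval 1.17 to 1.39). SLC25A37, a mitochondrial iron importer, went from 1304 to 545 counts (-1.05, interval -1.20 to -0.90). Among the next in size, COX17 (452 and 751 counts, 0.94) and ATOX1 (600 and 981, 0.92), both copper chaperones, were higher in KO, while the magnesium carriers SLC41A1 (1038 and 460, -0.96) and SLC41A2 (537 and 287, -0.69) were lower. CCS, a further copper chaperone of the list that was named after its values were seen, was lower (2399 and 1476, -0.49).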

How the data were processed

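Total RNA gave 1 Illumina library of MAEL WT and 1 of MAEL KO. The submitters' processing notes name HISAT2 2.0.5, featureCounts 1.5.0-p3 and hg19, whereas the deposited tables carry GRCh38 coordinates, which equal those of GENCODE 29 for 58653 of 58735 genes and for all 34 members. The authors deposited read counts per gene without normalization, and FPKM values, which together with the counts and listed gene lengths imply library sizes of 21872531 (WT) and 18958459 (KO) rather than the count totals. Library strand, read length and the handling of reads with several matches are not given in the sources used here.

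Normalization was by TMM with edgeR 4.0.16 (R 4.3.3), with DESeq2 1.42.0 size factors and total counts as alternatives. Other alternatives were 0.1 or 5 added counts, no filter or one of 100 counts, protein-coding genes alone, and the FPKM ratio. With no filter, 25 members, 11 flanking genes and 17 other metal handling genes entered. SLC30A2 (1 and 0 counts) and TMEM163 of the metal handling list (0 and 3) stayed out. These lists were thus not wholly unfiltered. Fold changes used 1 added count, a filter of 10 counts in 1 library, a floor of 3 counts and exact 95% intervals. They were computed in Python 3.11.15 with SciPy 1.17.1. A check on simulated data held counting error only, with no variation between clones or cultures, so it cannot speak to such variation. The threshold of 2 is the study's and 1 was added. With 1 library per condition no test was run. The members and lists were chosen with earlier results of these data known. Every member with at least 10 counts in 1 library is named, as are members below that and up to 3 genes at each end of the other lists. Promoters are from RefSeq. Protein sequences were not used here.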

Additional observations from a re-analysis of the deposited data

How the results depend on the processing

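No paired analysis was possible because there is 1 library per condition, and leaving out a library was not possible either. Of 172 fold changes of 25 members under the alternatives, 156 stayed within their counting interval. The 16 others and the 3 that changed sign (SLC39A4, SLC39A9 and MT2A) were all with total counts, where 9 of 25 stayed within. A count filter does not enter a gene's fold change, so the 25 values with no filter and the 22 with at least 100 counts could not differ. The FPKM ratio rests on library sizes close to those after TMM, and DESeq2 size factors were close as well. The 156 are thus little evidence that the fold changes are stable. With total counts, 2 members were below -2 in place of none, 1 was above 1 in place of 3, and the SLC39A median was -0.49 in place of -0.21. That scaling lowers every gene alike, and took the median over the whole table from -0.04 to -0.31. The summed SLC39A counts changed sign with total counts, from 0.13 to -0.15, and gave 0.12 with DESeq2 size factors, a comparison chosen after seeing the data. The median of the other metal handling genes was -0.10, and 0.14 with at least 100 counts. Without MT2A the summed metallothionein counts differed by 1.10 in place of 0.43, from 34 and 63 counts. For genes with at least 100 counts no metallothionein median could be given, as none reached that count.

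Over all genes, the numbers above 2 and below -2 were 387 and 1008. They were 269 and 1309 with total counts, 250 and 513 with 5 counts added, 185 and 283 with at least 100 counts, and 1029 and 1773 with no count filter. Above 1 and below -1 they were 1827 and 2951, and 1174 and 4017 with total counts, 1110 and 1101 with at least 100 counts, 5304 and 5745 with no filter, and 1289 and 1853 for protein-coding genes. Beyond the construction of each filter and scaling, the cause was not tested. Depth limits genes with few counts: MT1F, with 12 and 18 counts, has an interval from -0.34 to 1.98. The unknown counting of reads with several matches limits the metallothioneins as well.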
